A study of Mus musculus with 6 samples.

Results

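The Hox-cluster miRNAs miR-10, miR-196 and miR-615 are small RNAs whose genes lie among the Hox genes of the mouse. They were chosen by number alone: every entry named miR-10, miR-196 or miR-615, with any letter, arm or star, was taken. The rule found 8 of the 689 entries of the deposited table, namely miR-10a, miR-10a*, miR-10b, miR-10b*, miR-196a, miR-196b, miR-615-3p and miR-615-5p. The 2 most abundant, miR-10a and miR-10b, held 99.9% of the reads of all 8. The other 6 had between 1.42 and 15.5 reads per group, as estimated from the steps of the lowest values.

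EMCMs are embryonic mouse cardiomyocytes, the beating muscle cells of the heart, here from wild-type E16.5 embryos. Each culture grew on a flexible plate coated with collagen I. The labels describe 3 stretch cultures, pulled by 16% at 1 Hz for 24 hours, and 3 static cultures kept for 24 hours without stretch, all of Swiss Webster background, whereas the methods name CD1 mice and a larger number of samples. Total RNA was made into small RNA libraries and sequenced to find miRNAs that respond to stretch. The values used here are 1 mean abundance per miRNA over both groups, as the authors pooled it. No value per culture was used, so no error between cultures, no n and no test stand behind any level, and the stretch and static groups are not compared here.

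Hox genes encode homeodomain transcription factors that give body segments their identity along the head-to-tail axis. Their order along each cluster mirrors the order in which they are used along the body. The miRNA genes inside the clusters are transcribed in the same direction as their Hox neighbours, and miR-10 and miR-196 are known to repress Hox mRNAs. miR-615 lies inside a Hoxc gene. A miRNA hairpin is cut into a duplex, 1 strand of which is usually kept by Argonaute while the other, marked with a star or named as the other arm, is mostly degraded. Base pairing of the seed, bases 2 to 8 of the mature strand, largely decides which mRNAs are recognized.

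All 8 entries matched a RefSeq mature miRNA (build GRCm38.p6). The sequences are shown 5′ to 3′ because they set which members could be told apart and which share targets. Capitals mark the seed.
miR-10a: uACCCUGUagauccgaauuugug
miR-10b: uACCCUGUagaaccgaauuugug
miR-196a: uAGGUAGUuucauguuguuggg
miR-196b: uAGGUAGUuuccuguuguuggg
miR-615-3p: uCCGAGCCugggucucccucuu
miR-615-5p: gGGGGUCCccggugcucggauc
miR-10a*: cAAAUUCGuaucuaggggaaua
miR-10b*: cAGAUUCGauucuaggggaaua

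The members carried 6 seeds. miR-10a and miR-10b shared 1 of them, miR-196a and miR-196b shared another, and each remaining strand had its own. Counting positions from 1 at the 5′ end, miR-10a and miR-10b, both 23 bases long, differed only by U12A. The 22-base miR-196a and miR-196b differed only by A12C. The star strands of the miR-10 hairpins differed by A3G, U9A and A10U, the first of which lies in the seed, so miR-10a* and miR-10b* do not share one. The longest run of bases common to miR-10a and miR-10b was 11, as it was for miR-196a and miR-196b, whereas the shortest tags kept by the authors had 18. A full-length tag without sequencing errors therefore separates the paralogs, while a tag with an error at position 12 may not. No other RefSeq mature miRNA of the mouse had any of these 6 seeds.

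miR-10a was the most abundant member, with a log2 mean abundance of -10.56, which is 0.0661% of the miRNA reads and rank 73 of 689. miR-10b followed at -10.70, or 0.0600% of reads and rank 76. Both lay in the upper part of the table, where the median entry held 0.000420% of reads. Just above miR-10a stood miR-183, and miR-130a just above miR-10b. miR-22, the most abundant miRNA of the table, held 20.5%. In estimated reads, miR-10a was at 22491 and miR-10b at 20425 per group (geometric means of the stretch and the static total). The difference of 0.14 on the log2 scale, or 1.10-fold, was larger than the smallest counting error possible, a SE of 0.0099, but no spread between cultures was available to judge it by. Since adapters do not attach to every sequence with equal efficiency, a ratio between any 2 miRNAs also carries that unmeasured efficiency.

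miR-615-3p, the main strand of miR-615, came next at a log2 mean abundance of -21.06, which is 4.56e-05% of reads and rank 503. It was 10.36 log2 units, or 1316-fold, below miR-10b, the largest gap between neighbours in the order of the members. miR-196a stood at -21.34, or 3.77e-05% and rank 517. Its paralog miR-196b stood at -21.86, or 2.62e-05% and rank 549. These levels come to 15.5, 12.8 and 8.91 reads per group, respectively. miR-196a was 0.53 log2 units above miR-196b, a 1.44-fold difference with a counting SE of at least 0.44. miR-615-3p was 0.27 above miR-196a, with a counting SE of at least 0.38. Both differences were under 2 counting SE, and so was that between miR-615-3p and miR-196b, at 1.87 counting SE. The order of the 3 miRNAs could not be told at these estimated reads. Higher read estimates would shrink the counting SE and take the 1.87 above 2. However, the low values gave no separate support for higher estimates. With the lowest product of the reads of the groups set to 4, no odd product would occur in the table.

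The lowest levels were those of the opposite strands. miR-10a* had a log2 mean abundance of -22.32, at rank 570, with 6.48 reads per group. miR-10b* had -23.35, or 9.34e-06% of reads, with 3.18 reads per group. miR-615-5p had -24.52, at rank 662, with 1.42 reads per group. Each step down this part of the order, from miR-196b to miR-10a*, to miR-10b* and to miR-615-5p, was 0.87, 1.47 and 1.13 counting SE, so neighbours could not be separated here either. Among the 8, then, the sequencing separated miR-10a and miR-10b from the rest and left the order of adjacent members among the other 6 undetermined.

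**Figure D1:**
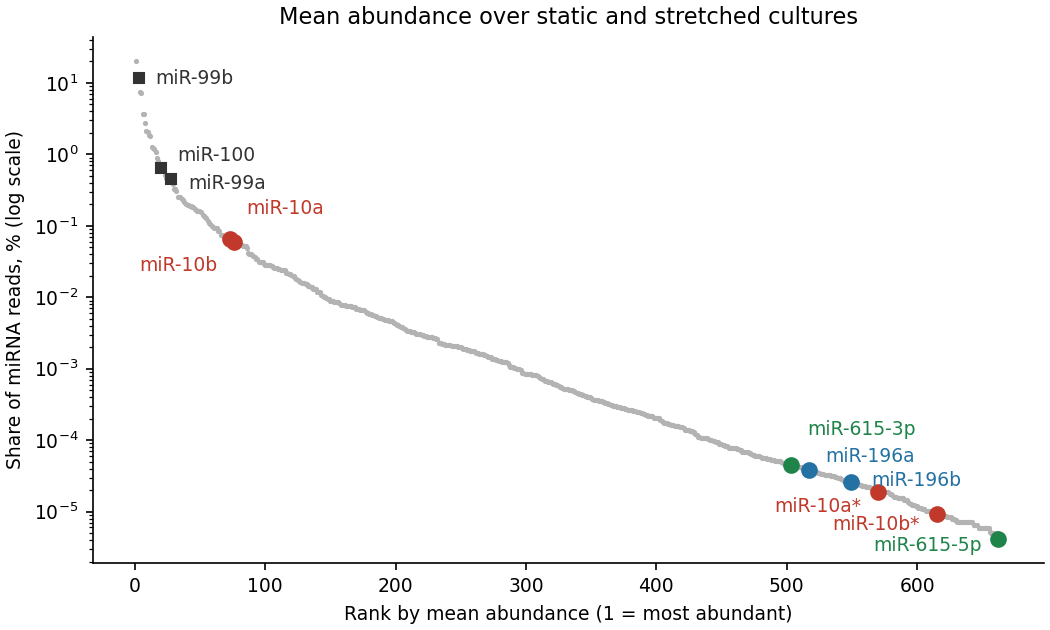
Share of miRNA reads in percent (log scale) against rank for 664 entries, without 25 that stand apart at a log2 mean abundance of -35.6 or lower, as pooled by the authors over stretched and static cultures. Red, blue and green circles are miR-10, miR-196 and miR-615, black squares the main strands of miR-99 and miR-100, and grey points all others. miR-10a and miR-10b sit side by side at ranks 73 and 76, and the other 6 members at ranks 503 to 662.

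Together the 8 members took 0.126% of the miRNA reads, of which miR-196a and miR-196b had 6.39e-05% and the arms of miR-615 4.98e-05%. The 6 members below miR-10b added up to 0.000142%, or 48.3 reads per group. The group totals had an estimated geometric mean of 3.40e+07 reads, and 184 of its entries (27.7% of 664) were nonetheless under 20 reads per group. All 6 low members were among these 184.

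The read numbers come from the low end of the table. They rest on reading the deposited value as the mean of the log2 proportions of the groups, a formula that the sources used here do not state. Every read number, counting SE and group total given depends on it. Under that formula the value depends on the product of the reads of the groups, and this product rose in whole-number steps among the rarest miRNAs. All 58 entries with a product of up to 12 were within 0.1 of a whole number when the lowest was set to 2, the smallest setting at which every entry was whole. Settings of 4 and 6 also left every entry used whole (34 and 18 entries). This follows from the setting of 2, whose products they only multiply, so it is no separate support for them. At the setting of 2 every whole product from 2 to 12 occurred, whereas at 4 no odd product would occur. Either setting would raise the read numbers and shrink the counting SE. The least counting SE given here hold for the setting of 2. With that setting miR-615-5p, with a product of 2.01, would have had 1 read in one group and 2 in the other. miR-10b* had a product of 10.1, and miR-10a* of 42.0. Which group had the larger number is not contained in the mean.

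**Figure D2:**
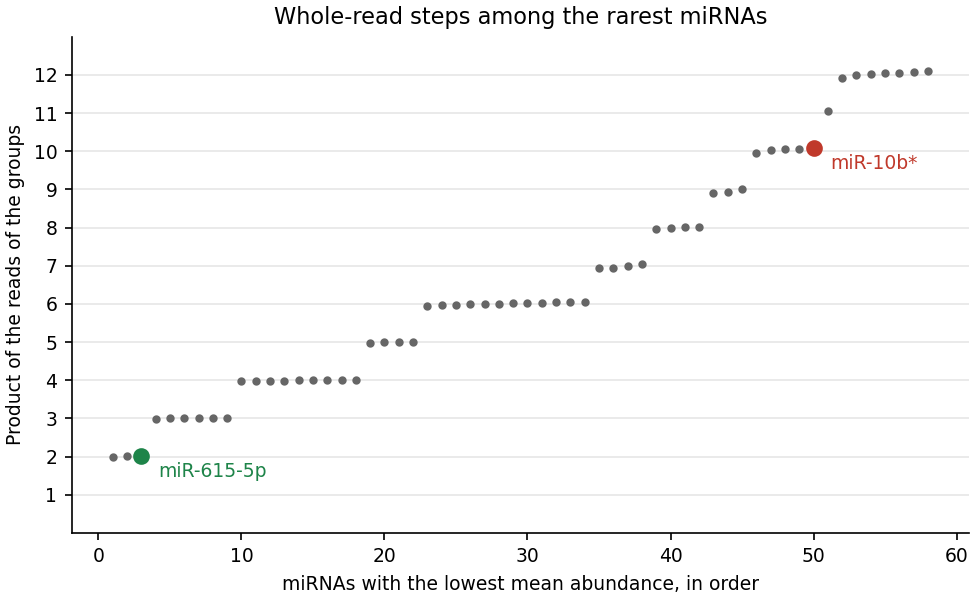
Product of the reads of the stretch and the static group (vertical axis) for the 58 rarest miRNAs with reads in both, ordered from the lowest (horizontal axis). The points lie on whole-number lines, with miR-615-5p on 2 and miR-10b* on 10.

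The hairpins are shown to locate these strands, with both mature strands in capitals (RefSeq, GRCm38.p6). RefSeq's table held Mir10a, Mir10b, Mir196a-1, Mir196a-2 and Mir196b. Mir196b is not printed here, and Mir615 is named only.
Mir10a: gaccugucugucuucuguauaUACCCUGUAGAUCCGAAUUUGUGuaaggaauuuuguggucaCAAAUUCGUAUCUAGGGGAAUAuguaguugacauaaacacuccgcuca
Mir10b: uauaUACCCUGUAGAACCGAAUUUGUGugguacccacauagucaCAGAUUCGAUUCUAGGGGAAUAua
Mir196a-1: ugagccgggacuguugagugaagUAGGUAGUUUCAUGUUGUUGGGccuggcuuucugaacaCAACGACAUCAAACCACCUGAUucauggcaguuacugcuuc
Mir196a-2: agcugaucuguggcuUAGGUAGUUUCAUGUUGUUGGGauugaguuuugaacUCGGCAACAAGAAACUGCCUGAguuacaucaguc
The 5′ strand of both miR-196a hairpins is the same miR-196a, so its reads cannot be assigned to the Hoxb or the Hoxc copy. The 3′ strands of the miR-196 hairpins were not analysed here.

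The miR-10 hairpins were among the most uneven of the pairs compared. miR-10a was 11.76 log2 units, or 3472-fold, above miR-10a*. miR-10b was 12.65 units, or 6432-fold, above miR-10b*. Arms were paired only by matching names, a name with its star or -5p with -3p. By that rule 228 pairs had both arms listed outside the 25 lowest entries. Their median difference was 3.91 log2 units (quartiles 1.79 and 6.98), and the largest was 14.66, for miR-192. In that order miR-10b was the 6th and miR-10a the 12th. The 10 pairs left out have an arm among the 25 lowest entries, and all of them would stand above miR-10b. Strands with a copy number in the name were not paired at all. Of these, let-7f-2* at -21.18 lies further below let-7f, at -5.76, than miR-192* below miR-192. These ranks therefore hold only among the 228. The difference a pair can show is bounded by the level of its main arm, since no arm in these pairs had fewer than 1 read per group. Among the pairs kept, 48, its own included, had a main arm within 1.5 log2 units of miR-10a, with a median of 4.23. Of these, 5 were above miR-10a, miR-10b among them. The main arm of miR-182, at -9.23, also lay in this window, but its pair was left out because miR-182* stood at -36.5. So did miR-103, at -9.34, which was not paired with miR-103-2*, at -21.57, because of the copy number. That difference would also be above miR-10a. No test was made of this order, and the star counts of 6.48 and 3.18 reads leave each ratio with a counting SE of at least 0.40 and 0.57 log2 units.

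For miR-615 the 3p strand was 3.45 log2 units, or 11.0-fold, above the 5p strand. This was close to the median of all pairs kept. However, miR-615-5p, at -24.52, stood at the floor of the entries kept, so this pair could hardly have shown a larger difference. The 26 kept pairs with a main arm within 1.5 log2 units of miR-615-3p had a median of 1.20 and reached 4.29 at most. With 1.42 reads behind the weaker strand, the counting SE of the difference was at least 0.90.

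**Figure D3:**
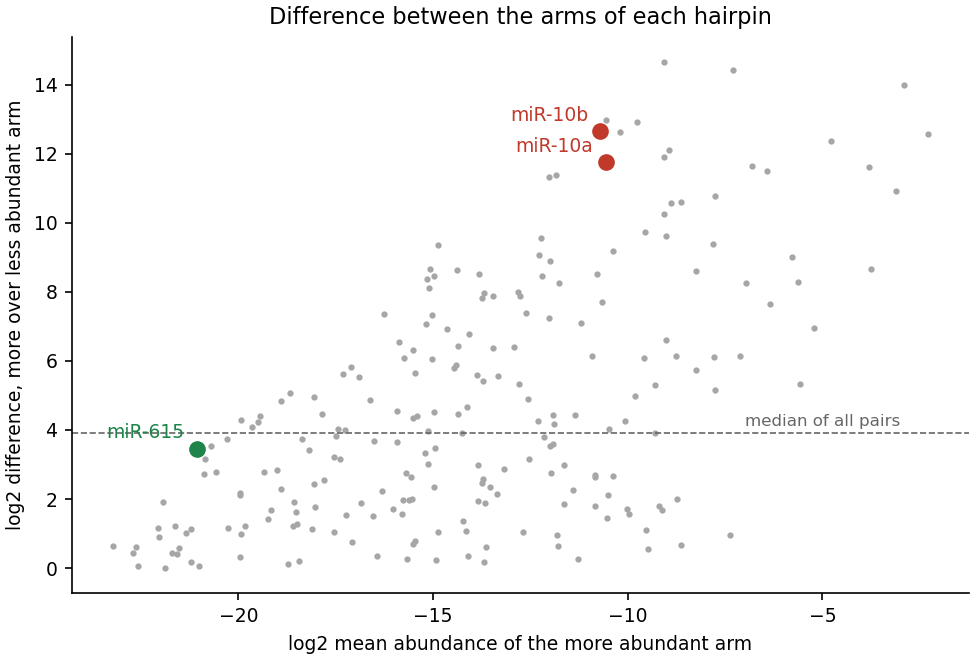
Difference between the arms of each of 228 pairs (log2, vertical axis) against the log2 mean abundance of the more abundant arm (horizontal axis). miR-10a and miR-10b (red) lie at 11.76 and 12.65, far above the dashed median of 3.91, and miR-615 (green) lies at 3.45.

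miR-99a, miR-99b and miR-100 are the relatives of miR-10 in sequence and lie outside the Hox clusters. They are shown because they resemble miR-10 over much of their length but carry another seed (capitals).
miR-99a: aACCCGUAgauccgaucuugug
miR-99b: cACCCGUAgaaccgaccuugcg
miR-100: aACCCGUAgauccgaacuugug
miR-100 and miR-10a shared a run of 11 bases, starting at position 6 of miR-100 and 7 of miR-10a. For miR-99a the run was 10 bases and for miR-99b 5. All 3 relatives were more abundant than miR-10a. miR-99b, the 3rd most abundant entry, held 11.6% of reads, which was 176-fold the level of miR-10a. miR-100 held 0.637%, or 9.64-fold, and miR-99a 0.447%, or 6.76-fold. Their arms were uneven as well, by 10.93 log2 units for miR-99b, 9.39 for miR-99a and 14.42 for miR-100. The miR-10 hairpins thus lay within the range of their relatives.

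The identity of the cultures was read from miRNAs known for their cell type. All 6 cardiomyocyte miRNAs of the list were listed, with 1.51% of reads in sum over all their strands. miR-208b, encoded in a myosin heavy chain gene, held 1.17% and miR-133a 0.186%. miR-208a-3p, at 0.0747%, stood above the miR-10 pair. miR-1a at 0.0395%, miR-499 at 0.0214% and miR-133b at 0.00106% stood below it. miR-10a and miR-10b thus fell inside the wide range of the single cardiomyocyte miRNAs. Markers of other cells were present too. miR-143 and miR-145, which mark smooth muscle, summed to 13.4%, nearly all of it from miR-143 at 13.3%. The fibroblast miRNAs miR-199a, miR-199b and miR-214 summed to 0.464%, and miR-126 of endothelium to 0.477%. Single fibroblast miRNAs spanned the miR-10 pair as well, with miR-199a-5p at 0.252% and miR-214 at 0.0279%, and miR-145 held 0.0694%. A place within such a range was thus not particular to the cardiomyocyte list. Epithelial miRNAs summed to 0.00511%, blood miRNAs to 0.00859%, and miR-9, the neuronal miRNA of the list that was found, to 0.00183%. In bulk RNA, fewer cells of a type and less RNA per cell cannot be told apart. Each of the 6 low members was below the summed share of every one of these lists. miR-122 of liver, at 6.00e-05%, was nominally above miR-615-3p and miR-196a, but at so few reads this order was not tested. Which cells the miR-10 reads came from was not tested.

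**Figure D4:**
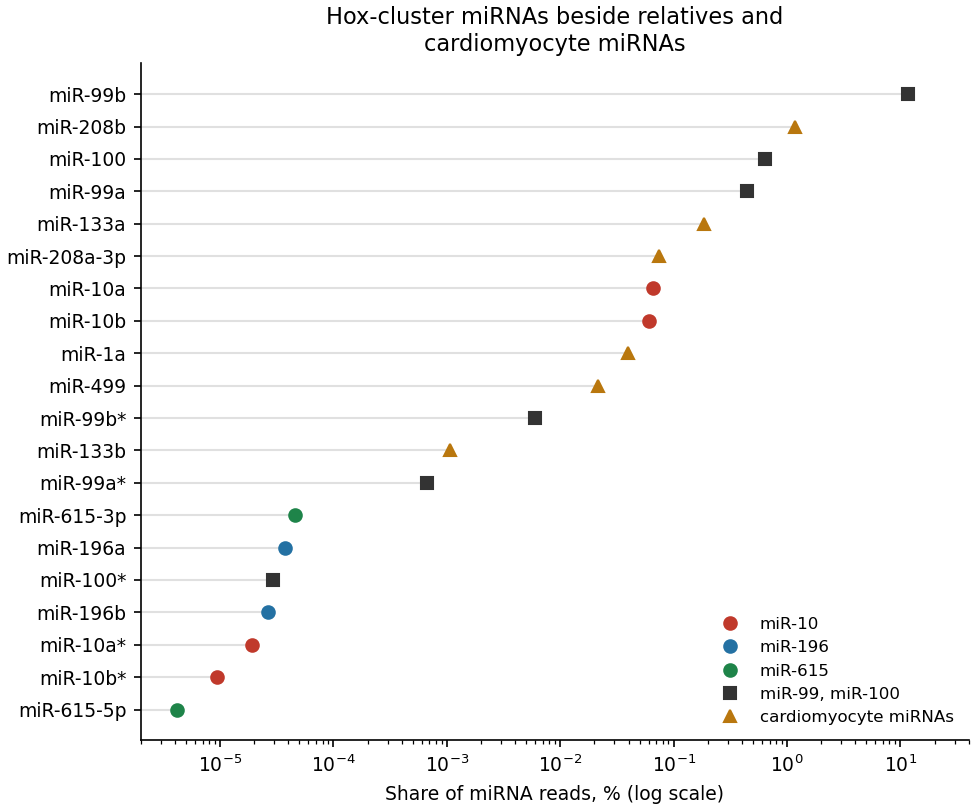
Share of miRNA reads in percent (log scale) of the 8 Hox-cluster miRNAs (circles), both strands of miR-99 and miR-100 (squares) and the most abundant strand of each cardiomyocyte miRNA (triangles). miR-10a and miR-10b fall between miR-208a-3p and miR-1a, while miR-196 and miR-615 lie below every main strand shown.

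The levels can be set beside the places of the genes (GENCODE M21, GRCm38). Mir10a, at chr11:96317165-96317274 on the plus strand, lay between genes of the Hoxb cluster, 992 bases before Hoxb4 and 11043 after Hoxb5. Mir10b, at chr2:74726070-74726137 on the plus strand, lay in an intron of transcripts of both Hoxd3 and Hoxd4. Both moderately abundant members thus came from next to or within the Hox genes numbered 4. Hoxb4 and Hoxd4 encode transcription factors that pattern the hindbrain and neck region.

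Of the rare members, miR-196a and miR-196b came from elsewhere in the clusters. The rare miR-10a* and miR-10b* came from the Mir10a and Mir10b hairpins themselves. Mir615, whose strands were also rare, lay before Hoxc4, as Mir10a lay before Hoxb4. Mir196a-1, at chr11:96265164-96265265 on the plus strand, lay between Hoxb13 and Hoxb9, 6191 bases before Hoxb9. Mir196a-2, at chr15:102973350-102973434 on the plus strand, lay 1456 bases after Hoxc10 and 3004 before Hoxc9, within an intron of a long Hoxc5 transcript. Mir196b, at chr6:52230081-52230165 on the minus strand, overlapped an annotated exon of Hoxa9 and lay 1031 bases after Hoxa10. Mir615, at chr15:103014910-103015001 on the plus strand, lay in an intron of Hoxc5, 3028 bases after Hoxc6 and 3932 before Hoxc4. Hoxa9, Hoxb9 and Hoxc9 act in the trunk, and Hoxa10 and Hoxc10 further towards the tail. All 6 hairpins had the strand of their Hox neighbours. Whether position in a cluster goes with level was not tested. The mRNA levels of the Hox genes were not analysed here.

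**Figure D5:**
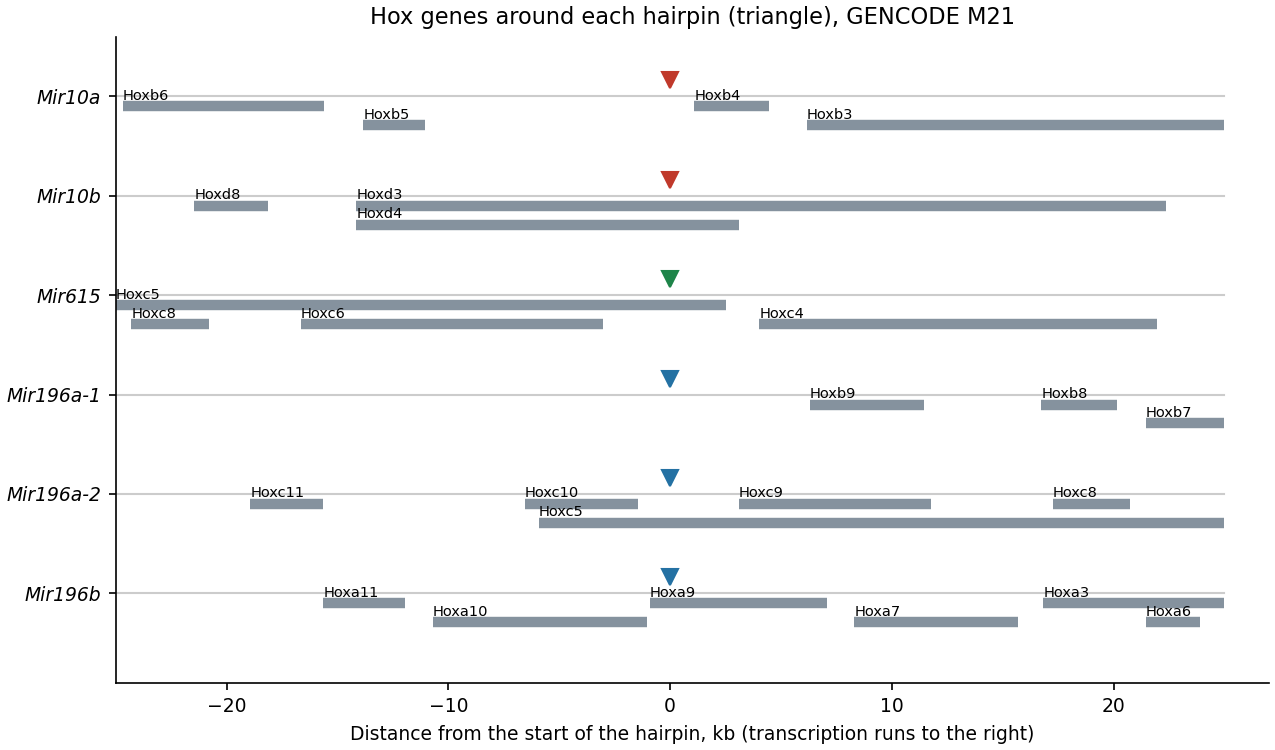
Hox genes (grey bars, GENCODE M21 gene bounds) within 25 kb of each hairpin (triangle), with distance in kb from the start of the hairpin and transcription running to the right. Mir10a and Mir10b lie before or inside Hoxb4 and Hoxd4, the 3 miR-196 hairpins lie near Hoxb9, Hoxc9 and Hoxa9, and Mir615 lies between Hoxc6 and Hoxc4.

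To place the sequences beside possible Hox targets, each of the 8 members was aligned without gaps to the longest 3′UTR of 21685 protein-coding genes, 39 Hox genes among them, and windows with at least 18 Watson-Crick pairs were kept. miR-196a had 1 such window, in Hoxb8, and it was the best for any member, with 21 Watson-Crick pairs and 1 G-U pair over all 22 bases. This site is the textbook example of an animal miRNA target that is cut rather than only repressed. It starts at base 421 of the 848 bases of the 3′UTR of Hoxb8-201 (chr11:96284888-96284909, plus strand, GRCm38). Capitals mark the Watson-Crick pairs with each miRNA.
Hoxb8 with miR-196a: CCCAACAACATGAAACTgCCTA
Hoxb8 with miR-196b: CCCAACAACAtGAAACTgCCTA
miR-196b paired with the same window by 20 Watson-Crick pairs and 1 G-U pair, and its A12C change was the unpaired base. The other windows, of 18 Watson-Crick pairs each, lay in genes outside the Hox clusters, with 3 for miR-196b, 4 for miR-615-3p and 1 each for miR-10a, miR-10b and miR-615-5p. miR-10a* and miR-10b* had 0. Beside this near-complete pairing, the level of miR-196a in these cultures was 12.8 reads per group. A window of this kind is a match of letters, and binding was not measured. Sites that pair by the seed alone fall short of 18 pairs, so this search could not find them, in Hox genes or elsewhere.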

How the data were processed

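Small RNA of E16.5 cardiomyocyte cultures was sequenced by the authors (TruSeq Small RNA, HiSeq2500, RNA integrity above 8). Tags of at least 18 nt were kept and counted per miRNA. The methods name edgeR for the comparison, while the submitters' processing notes list Bowtie2 and DESeq. The genome build is not given in the sources used here. The values used are the log2 mean abundances over both groups that the authors deposited, read here as log2 proportions of miRNA reads. Under the formula assumed for the read numbers, each share is a geometric mean of the shares in the groups, not a share of pooled reads. Taken out of the log, they add up to 0.995 over the table. The other 4 columns, the authors' log2 fold change, signed fold change, P value and FDR for stretch over static, were not used. The design had assumed counts per sample, so the test planned for counts was not run.

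Shares, ranks, arm differences and paralog differences were computed for every miRNA listed, with all numbers on the 689 entries. 25 entries stood apart at a log2 of -35.6 or lower, against -24.5 for the lowest of the rest, and were left out of arm pairs, as were the 10 pairs they would have formed. No member was among these. Arms were paired by matching names only, so strands with a copy number in the name were not paired. An identical value was shared by 30 entries, 4 of them among those 25 and none of them members. Reads per group were derived from the steps of the lowest values, on the assumption that each is the mean of the log2 proportions of the groups. The fit of the steps was tested on simulated data for 689 miRNAs made with the same formula, where all 50 low entries came out whole. This tests neither the formula nor the setting of 2, because the simulation left out every entry with a lower product. Counting errors are the smallest that these reads allow and cover counting only. Sequences came from RefSeq tables (GRCm38.p6) and gene positions from GENCODE M21. The members and lists were chosen with earlier results of these data known. Every member, the miR-99 and miR-100 relatives, the most abundant miRNA, rank neighbours and adjacent Hox genes were named by rule. miR-192, miR-182, let-7f and miR-103, with their other strands, were chosen after their values were seen and are the exceptions. Python 3.11.15, numpy 2.4.6, pandas 2.3.3 and matplotlib 3.10.9 were used. The alternatives were other scales, identical entries counted once, other sets of entries and pairs, and a shorter seed.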

Additional observations from a re-analysis of the deposited data

How the results depend on the processing

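Of 39 alternative values, 37 stayed within 1.5 times the reported value (log2 differences within the same ratio), a limit used because pooled means have no replicate spread. Most of the alternatives, such as dividing by a sum of 0.995 or counting identical entries once, could hardly move a value that far. The count is therefore no measure of robustness. The summed share of the members ranged from 0.126% to 0.127%, and miR-10b and miR-10a remained 6th and 12th of the 160 kept pairs that are marked with a star. The median difference between arms was 2.64 log2 units among the 85 pairs with both arms above the table's median level, which hold no member, against 3.91. With seeds of bases 2 to 7, 1 other miRNA, miR-1839-5p, shared the seed of miR-196, against 0 with bases 2 to 8. The 6 low members have no value in the set above that median, and the sum of both arms could not be formed for miR-196. Without counts per sample, the comparison of stretch with static, DESeq2 and its size factors, the unfiltered fit and leaving out replicates were not run. No paired analysis was possible because only means pooled over all samples are used. Depth limits 6 of the 8 members, whose estimated 1.42 to 15.5 reads per group do not settle the order of adjacent members, and a difference of stretch from static was not examined for any member.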
